A study of Sus scrofa with 34 samples.

Results

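Brush border hydrolases are enzymes that sit on the microvilli of enterocytes, the absorptive cells of the small intestine, with their active sites facing the gut lumen. The group described here holds 9 genes chosen by name, namely the peptidases ANPEP, DPP4, ENPEP, MME and XPNPEP2 and the glycosidases SI, LCT, MGAM and TREH. Of these, 8 were found by symbol among the 25880 genes of the count tables. LCT, which encodes lactase, was not matched by symbol and is not analysed here. All 8 passed the filter on low counts in the ileum, and 5 of them (ANPEP, DPP4, ENPEP, XPNPEP2 and MGAM) passed it in the liver.

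The peptidases trim peptides left by pancreatic digestion down to amino acids, dipeptides and tripeptides that transporters can take up, and each prefers a different peptide end or bond. The glycosidases split sucrose, starch fragments, lactose and trehalose into monosaccharides. Both kinds are made by differentiated enterocytes of the villus rather than by dividing crypt cells, and they are widely used as markers of a mature brush border. Several of the peptidases are also found on hepatocytes, bile canaliculi, kidney tubules or leukocytes, so a second tissue gives a contrast for each of them.

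Weaned crossbred piglets (Landrace × Large White sows, Pietrain boars) received 1 of 4 diets up to day 28 of the feeding trial: a basal diet (control), the basal diet with a phytogenic feed additive (PFA, an essential oil product holding menthol, carvacrol, methyl salicylate and the oils of oregano and caraway), a diet with heated, oxidized rapeseed oil (OO), or both (OO + PFA). The labels give day 28 as an age, while the methods of the study give it as the trial day in piglets that were about a month old on arrival. Each diet was fed in 1 pen, so diet and pen cannot be told apart. RNA was sequenced from the middle ileum of 5 control and 5 PFA pigs and from the liver of 6 pigs per diet, and all 10 ileum pigs also gave a liver library. The oxidized oil groups were sequenced in the liver alone. Pigs are named by diet code (C, P, OO and OP for OO + PFA) and number, and both sexes were in the trial but the labels do not give the sex of a pig.

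The libraries held 18772230 to 24338165 counted read pairs in the ileum and 19839171 to 42446834 in the 23 livers used. The OO + PFA liver OP-77, left out by the study for suspected RNA degradation, was left out here too. Its read pairs with several alignments came to 36.6 per 100 counted, against 3.02 to 14.7 in the other livers. The tissue labels fitted their markers. Summed over 16 genes of brush border structure, the level was 6776 to 9351 CPM (counts scaled to a common library size) in the ileum and 375 to 595 CPM in the liver. Summed over 8 hepatocyte genes it was 0.609 to 2.31 CPM in the ileum and 99521 to 222670 CPM in the liver. The control ileum C-80 stood apart with 632 CPM summed over 7 B cell genes, where the other ileum libraries had 14.3 to 28.2 CPM.

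In the ileum ANPEP was the one hydrolase whose PFA and control pigs did not overlap, with less mRNA in every PFA pig. ANPEP encodes aminopeptidase N, a zinc enzyme that removes neutral amino acids from the amino end of peptides and that some porcine coronaviruses use as their receptor. The control pigs C-71, C-80, C-92, C-100 and C-110 had 8221, 8028, 9449.9, 9501 and 8268 CPM of ANPEP. The PFA pigs P-75, P-95, P-107, P-134 and P-138 had 6039, 6102, 5343, 6954 and 5634 CPM. The highest PFA pig, P-134, thus lay below the lowest control pig, C-80. The group means were 6014 ± 609.8 CPM with PFA and 8694 ± 719.6 CPM in controls (SD, n = 5 each).

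The log2 fold change of ANPEP was -0.53 with a standard error of 0.12, a level 1.45-fold lower with PFA. Its unadjusted p of 0.00109 ranked sixth among the 14300 genes tested, but its adjusted p was 0.991 (quasi-likelihood test of edgeR, Benjamini-Hochberg adjustment), so ANPEP was not called at the threshold of 0.05. The call depended on the tool: with DESeq2 the log2 fold change was -0.54 and the adjusted p 0.00102, and ANPEP was 1 of 4 genes called. These 4 were 0.0281% of the 14244 genes that DESeq2 gave an adjusted p. The study, which used DESeq2, also names 4 ileum genes at an adjusted p of 0.05, namely PRR15, ANPEP, UCHL5 and NOTUM. The 4 called here hold the first 3 of these but not NOTUM. The study also states a fold change cutoff, which the 1.45-fold difference of ANPEP does not reach. Over the 17 alternative fits the log2 fold change lay between -0.59 and -0.48 and the adjusted p between 0.00102 and 1.00. No gene was called by edgeR in this comparison (0.0% of those tested), with 401 genes at an unadjusted p under 0.05. Groups that did not overlap, in either direction, were seen for 0.559% of genes tested and for 1 of the 8 hydrolases. The members were chosen with these results known, so the place of ANPEP in the group is a description. In whole tissue, fewer enterocytes and less mRNA per enterocyte cannot be told apart.

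**Figure D1:**
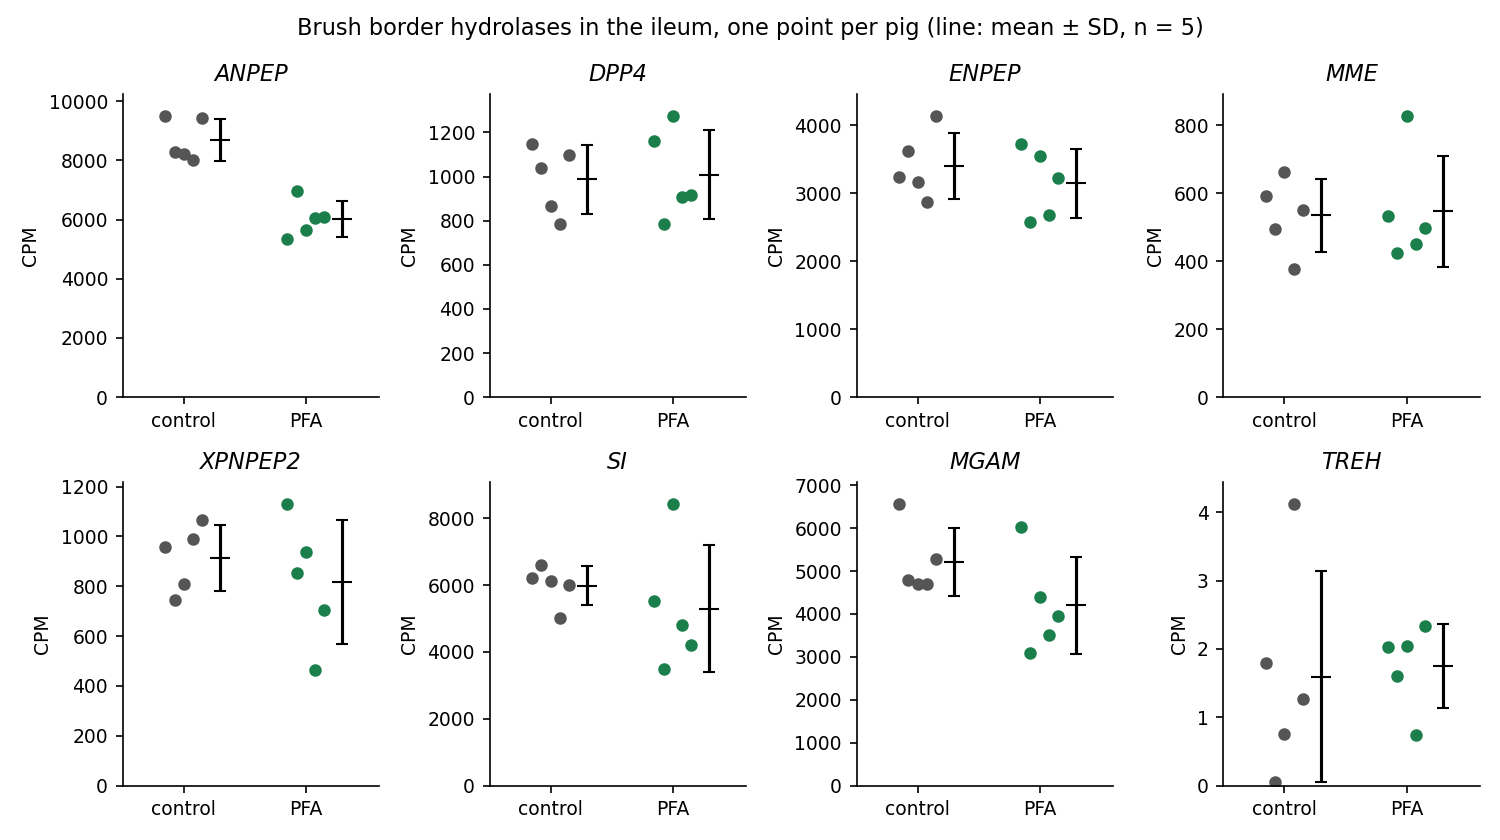
CPM (linear axes from 0) of the 8 hydrolases in the ileum, with 1 point per pig for the control and PFA diets and the mean ± SD (n = 5) beside each group. The 5 PFA pigs lie at 5343 to 6954 CPM of ANPEP, all below the control pigs at 8028 to 9501 CPM, and the groups of the other 7 genes overlap.

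ANPEP is annotated on the minus strand of chromosome 7 (55351081 to 55373856, Sscrofa11.1) with 4 transcript starts. The outermost start belongs to predicted transcripts alone, and an inner start, 7859 bases downstream, to a curated transcript. The remaining starts are not described here. In other mammals the outer promoter is known for myeloid cells and fibroblasts and the inner one for intestine and liver. The counts cover the gene as a whole and do not separate the starts. The 250 bases before the outer start are shown for contrast with SI below, from RefSeq, 5′ to 3′ on the minus strand, with GC boxes (GGGCGG) in capitals:
ANPEP outer promoter, chr7:55373857-55374106: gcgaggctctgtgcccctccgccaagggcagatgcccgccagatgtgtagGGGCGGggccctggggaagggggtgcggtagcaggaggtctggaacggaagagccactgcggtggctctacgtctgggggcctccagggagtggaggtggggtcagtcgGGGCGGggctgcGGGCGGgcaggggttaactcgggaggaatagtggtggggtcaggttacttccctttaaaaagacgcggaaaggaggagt

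The outer window held 3 GC boxes and none of the other letters described here, searched on both strands (a CDX site as TTTATG, the letters TATAAA for the TATA box, with AGATAA searched for GATA factors). Among 19561 RefSeq promoters, read as the 250 bases before the start, 46% held a GC box. A match is a run of letters and not a measured binding site.

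DPP4 (chr15:68661764-68742961, minus strand) encodes dipeptidyl peptidase 4, which cuts off dipeptides that end in proline or alanine and inactivates incretin hormones. Its level in the ileum was 786.9, 906.5, 915.7, 1162 and 1274 CPM in the PFA pigs and 785.2, 864.7, 1040.1, 1097 and 1147 CPM in the controls, each from low to high. The groups overlapped over nearly their whole range. The log2 fold change was 0.03 (standard error 0.16), with an adjusted p of 0.995.

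ENPEP (chr8:111765839-111858349, minus strand) encodes aminopeptidase A, which removes acidic amino acids and acts on angiotensin II. It was at 2580 to 3725 CPM with PFA (median 3223) and 2876 to 4139 CPM in controls (median 3237), and the log2 fold change was -0.11 (standard error 0.15) at an adjusted p of 0.991. MME (chr13:95018395-95122977, plus strand) encodes neprilysin, an endopeptidase of small bioactive peptides, and was at 424 to 827 CPM with PFA (median 497) and 377 to 663 CPM in controls (median 551). Its log2 fold change was 0.03 (standard error 0.20, adjusted p 0.995). The highest MME value, 827 CPM, belonged to P-138, and the other 4 PFA pigs reached at most 533 CPM.

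XPNPEP2 (chrX:106333785-106363412, plus strand) encodes the membrane-bound aminopeptidase P, which frees an amino acid that precedes proline. It was at 463 to 1128 CPM with PFA (median 852) and 746 to 1067 CPM in controls (median 957). The PFA pigs thus spanned the control range on both sides, and the log2 fold change was -0.16 (standard error 0.21, adjusted p 0.991).

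Among the glycosidases none had groups that stood apart. SI (chr13:104296281-104379558, minus strand) encodes sucrase-isomaltase, which splits sucrose and the branch points of starch. The control pigs had 5002, 6016, 6124, 6200.0 and 6591 CPM of SI, close to each other, and the PFA pigs had 3501, 4205, 4819.7, 5537 and 8414 CPM. In 4 of the 5 PFA pigs SI was below the control median of 6124 CPM, and in P-138 it was above every control pig. The log2 fold change was -0.18 (standard error 0.21, adjusted p 0.991), and it was -0.41 without P-138 and -0.06 without P-134.

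The promoter of SI is shown for contrast with the outer promoter of ANPEP, since CDX2, a homeodomain factor of the intestinal epithelium, is known to act on this gene. SI has 3 annotated starts, and the outermost belongs to predicted transcripts alone. The 250 bases before its outermost RefSeq start (minus strand of chromosome 13, Sscrofa11.1) held 2 CDX sites (TTTATG) and the letters TATAAA on the opposite strand (read as TTTATA), in capitals:
SI promoter, chr13:104379559-104379808: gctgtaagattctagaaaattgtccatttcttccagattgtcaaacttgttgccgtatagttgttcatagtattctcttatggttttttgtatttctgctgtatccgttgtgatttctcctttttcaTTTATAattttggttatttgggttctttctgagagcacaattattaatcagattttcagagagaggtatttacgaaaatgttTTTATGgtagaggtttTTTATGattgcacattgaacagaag

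A CDX site stood in 8.14% of all windows searched and before 2 of the 8 hydrolases, SI and MME. The letters TATAAA, on either strand and at any place in the window, stood in 9.73% of all windows and before 4 hydrolases, ENPEP, MME, SI and MGAM. Only in MME did a match lie on the strand of the gene, at bases -159 to -154. The match nearest to a start was that of MGAM, at bases -65 to -60 on the opposite strand. Whether any of them works as a TATA box was not tested. The outermost starts of MME and MGAM, like that of SI, belong to predicted transcripts alone. The window of SI was 31.6% G and C and the outer window of ANPEP 66.4%.

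MGAM (chr18:7871529-7997137, minus strand) encodes maltase-glucoamylase, which releases glucose from the ends of starch fragments. The control pigs had 4695, 4705, 4785, 5274 and 6551 CPM of MGAM and the PFA pigs 3098, 3514, 3964, 4391 and 6032 CPM. In 4 of the 5 PFA pigs MGAM was below the lowest control pig, and in P-107 it was above 4 of the 5 controls. The log2 fold change was -0.31 (standard error 0.19) with an unadjusted p of 0.124 and an adjusted p of 0.991. MGAM2 is annotated beside MGAM on chromosome 18 as a related gene, and read pairs that align to both may be left uncounted or shared, so the values of MGAM are uncertain.

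TREH (chr9:45949891-45965372, minus strand) encodes trehalase, which splits the disaccharide trehalose of fungi and insects. It was close to the limit of counting in the ileum, at 1 to 108 counts per library and 0.0537 to 4.11 CPM. The PFA and control means were 1.75 ± 0.618 and 1.59 ± 1.55 CPM (SD, n = 5 each), and the log2 fold change was 0.12 (standard error 0.66) at an adjusted p of 0.995. The highest value was in C-80 and the lowest in C-110, both controls, so the control range enclosed every PFA pig.

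Over the 8 hydrolases, 5 had a fold change below 0, with a median of -0.14, beside 46.7% of all genes tested and a median of 0.02. Together they took 2.46% to 2.76% of the counts of a control library and 1.85% to 2.35% of those of a PFA library, ranges that did not overlap. ANPEP alone took 0.816% to 0.931% in controls and 0.519% to 0.735% with PFA, again without overlap. The other 7 together took 1.59% to 1.83% and 1.19% to 1.82%, which overlapped. Among the 5 peptidases the share of ANPEP was 58.0% to 61.6% of their summed counts in controls and 44.9% to 60.0% with PFA. This share overlapped through P-134, which had the highest ANPEP and the lowest DPP4, ENPEP and MME of the PFA pigs.

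Per kilobase of exon, ANPEP was the highest of the hydrolases in the ileum at 1926 ± 405 CPM per kilobase (SD, n = 10), above ENPEP at 918 ± 136.96 in 10 of 10 pigs. ENPEP and SI (897 ± 219) changed places from pig to pig, ENPEP being higher in 5 of 10. SI was above MGAM (709 ± 160.1) in 8 of 10 pigs. Below them DPP4 (416 ± 70.8), XPNPEP2 (178 ± 40.1), MME (77.5 ± 18.6) and TREH (0.868 ± 0.578) followed in the same order in all 10 pigs. The exon lengths are those of RefSeq, from 1927 bases in TREH to 6979 bases in MME, and transcript ends missing from a model raise the value of that gene.

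Other genes of the brush border gave the setting for these values. Of 18 further brush border hydrolases 13 were found and tested. None was called, 8 had a fold change below 0 and their median was -0.21. The lowest p-values belonged to DPEP1, a dipeptidase, at 45.7 ± 27.6 CPM with PFA and 119.9 ± 47.5 CPM in controls (log2 fold change -1.39, standard error 0.39, adjusted p 0.991), and to ENPP7, which splits sphingomyelin, at 16.4 ± 6.96 and 36.9 ± 22.3 CPM (log2 fold change -1.17, standard error 0.41, adjusted p 0.991). NAALADL1 was at 934 ± 311 and 1359 ± 209 CPM (log2 fold change -0.54, standard error 0.22, adjusted p 0.991). In each of these 3 genes the groups overlapped.

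Relatives of the hydrolases that work inside the cell or on other membranes were not called either. Of 24 listed, 19 were tested, 6 were below 0 and the median was 0.03, with PREP (log2 fold change 0.12) and DPP8 (0.19) having the smallest p-values, both cytosolic enzymes that cut after proline. Of the 16 genes of brush border structure, 14 were below 0 with a median of -0.17, and CDHR5, a cadherin that links microvillus tips, had the lowest p (log2 fold change -0.61, standard error 0.27, adjusted p 0.991). Of 16 tested genes of enterocyte absorption 12 were below 0 with a median of -0.23, the smallest p-values being those of APOA1 (-0.65) and the neutral amino acid transporter SLC6A19 (-0.56). Of 10 crypt and cell cycle genes 3 were below 0 with a median of 0.12.

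Because structure genes lay below 0 together with ANPEP, the comparison was also made with their mean log2 level per pig as a covariate, and the log2 fold change of ANPEP was then -0.48. The structure score was 8.02 to 8.51 in controls and 7.97 to 8.24 with PFA on the log2 CPM scale. Without C-80, the library with B cell transcripts, the log2 fold change of ANPEP was -0.56. With the mean log2 level of B cell genes as a covariate it was also -0.56, while DPP4 and MME, at 0.03 each without the covariate, were at -0.066 and -0.10. That mean was 5.99 in C-80 and 0.78 to 1.69 in the other ileum libraries. This fit thus mostly repeats the one without C-80 and is not a separate check.

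**Figure D2:**
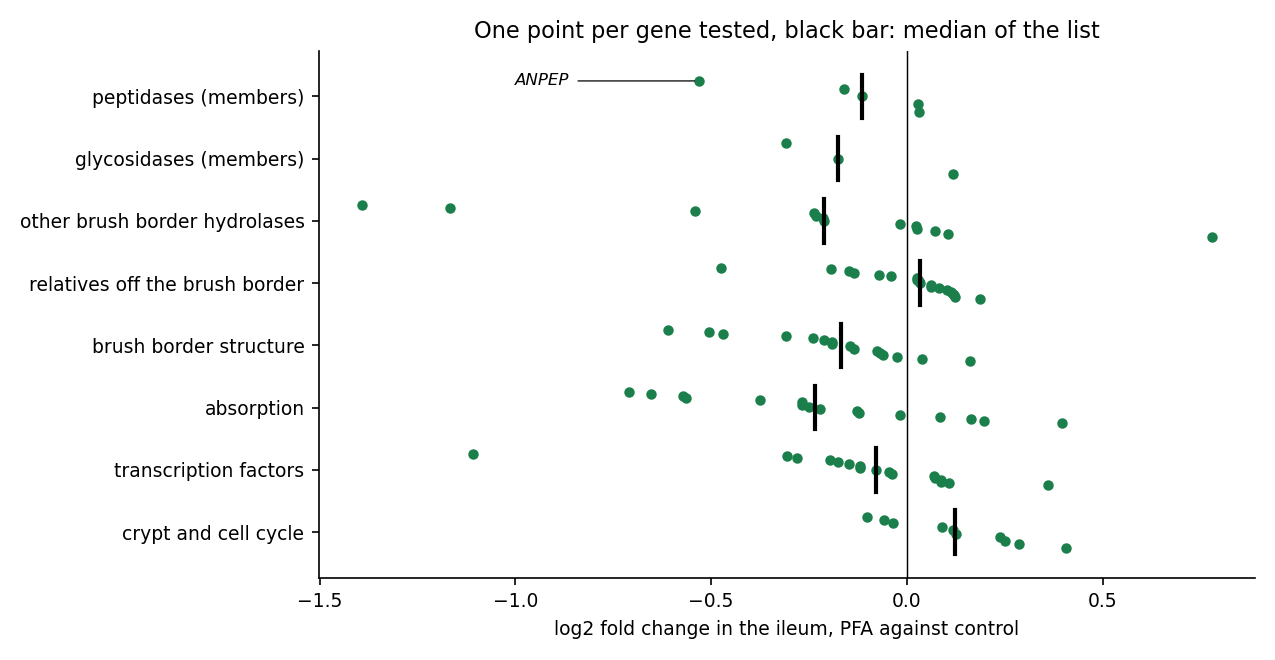
Log2 fold change in the ileum, PFA against control (linear axis), with 1 point per gene tested in each list and a black bar at the median of the list. ANPEP lies at -0.53 among the peptidases, and the medians of the hydrolase, structure and absorption lists lie between -0.23 and -0.11.

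Of 17 transcription factors of the intestine tested, none was called in the ileum. CDX2 was at 148 ± 28.1 CPM with PFA and 180.1 ± 20.5 CPM in controls (log2 fold change -0.28, standard error 0.14, adjusted p 0.991). FOXA1 (0.36) and GATA5 (-1.11) had the smallest p-values of the list, at an adjusted p of 0.991 each. Of 6 goblet cell genes tested, 4 were below 0 with a median of -0.17 and none was called, AGR2 being at 0.47, the mucin MUC2 at -0.38, SPDEF at -0.34 and TFF3 at -0.33 (adjusted p 0.991 each). Smooth muscle genes summed to 3308 to 9982 CPM with PFA and 2102 to 8486 CPM in controls. The part of these levels in the hydrolase values was not tested.

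The liver served as a contrast. ANPEP, DPP4 and MGAM were clearly expressed there, ENPEP and XPNPEP2 were low, and MME, SI and TREH were at or near 0. ANPEP was at 309 to 559 CPM in the control livers (median 478), 313 to 548 CPM with PFA (median 429.6), 306 to 524 CPM with OO (median 457) and 225 to 506 CPM with OO + PFA (median 341). These ranges overlapped throughout. Over the 23 livers DPP4 was at 110.4 to 280.5 CPM and MGAM at 163 to 380.2 CPM. MME had 0 to 9 counts and TREH 0 to 8, with none in 3 and 9 of 23 livers, and SI had none in 22 of 23, with 3 counts in P-138. Per kilobase of exon ANPEP (109 ± 26.0, SD, n = 23) was above DPP4 (78.8 ± 18.03) in 20 of 23 livers, and DPP4 above MGAM (37.8 ± 9.53) in all 23. ENPEP (1.53 ± 0.836) and XPNPEP2 (1.37 ± 0.408) did not hold a fixed order, ENPEP being higher in 14 of 23.

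None of the 5 hydrolases tested in the liver was called across the 4 diets, where 3.66% of 13831 genes were called. Their adjusted p-values lay between 0.337 and 0.914 (edgeR's quasi-likelihood F-test). PFA against control gave ANPEP a difference of -0.12 on the log2 scale (standard error 0.19) at an adjusted p of 0.837 and DPP4 one of 0.04 (standard error 0.20) at 0.956. No gene was called in that comparison (0.0%), with 1522 at an unadjusted p under 0.05 and 43 called by DESeq2, none of them a hydrolase. OO against control called 2.71% of genes and none of the 5, with XPNPEP2 nearest to the threshold, 0.39 higher on the log2 scale (standard error 0.21) at an adjusted p of 0.294.

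The comparison of OO + PFA with OO asked whether the additive shifted genes under the oxidized oil. ANPEP was at 225, 233, 341, 356 and 506 CPM in the 5 OO + PFA livers, and 3 of them lay within the OO range. The log2 fold change was -0.39 (standard error 0.20) with an unadjusted p of 0.0660 and an adjusted p of 0.603. MGAM was at 170.1 to 236 CPM against 179.7 to 341 CPM, and the log2 fold change was -0.37 (standard error 0.20) at an adjusted p of 0.615. No gene was called in that comparison by edgeR (0.0%), with 1176 at an unadjusted p under 0.05 and 31 called by DESeq2, none of them a hydrolase. The OO livers enter this comparison and that of OO with control.

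ENPEP varied more between livers than any other tested hydrolase, from 1.40 to 10.7 CPM over the 23 livers, a spread found within each diet. Its standard deviation was 54.8% of its mean, and its diet comparisons had standard errors of 0.46 to 0.49 on the log2 scale. XPNPEP2 was at 3.81 to 8.25 CPM in the control and PFA livers and reached 12.9 CPM in OO-130 and 11.4 CPM in OP-137. OO-130 also had the highest sum over 5 cholangiocyte genes, 66.0 CPM where the median liver had 33.8 CPM. It was the highest liver for the absorption, transcription factor and other brush border hydrolase lists too. The same held for the goblet cell and enteroendocrine lists, at only 1.99 and 2.28 CPM, and for the list of Kupffer cells, the macrophages of the liver, at 216 CPM. The part of these sums in XPNPEP2 was not tested.

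**Figure D3:**
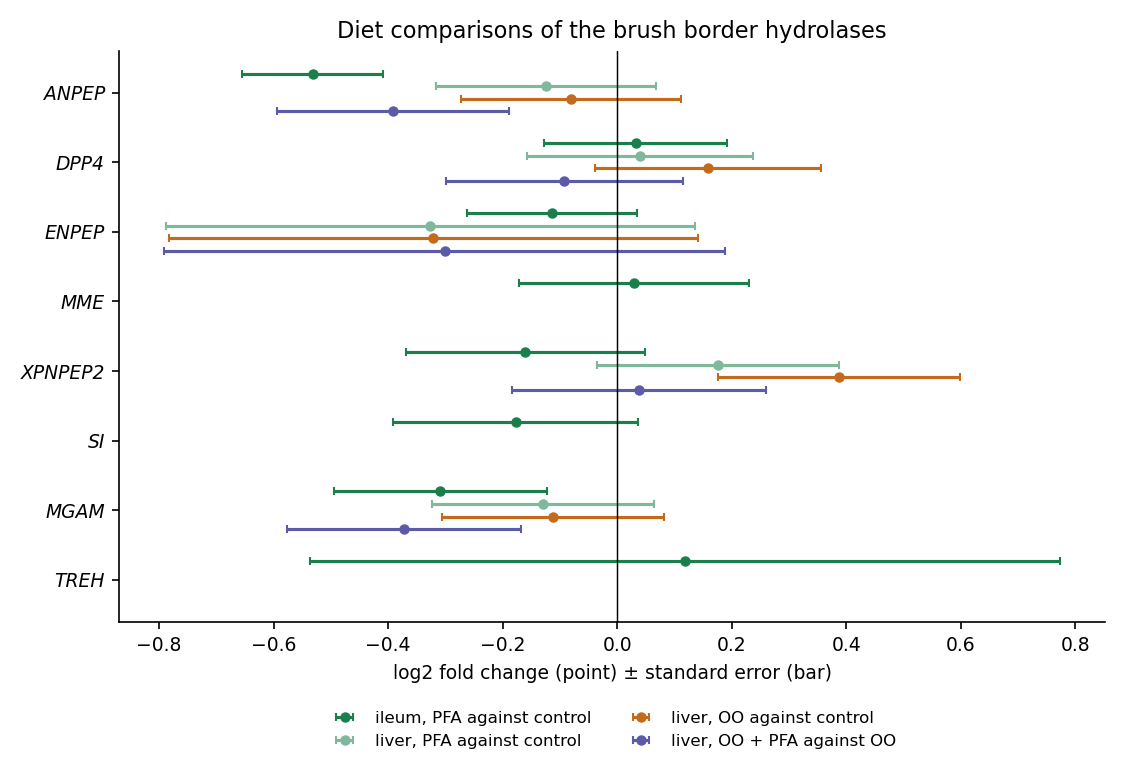
Log2 fold change (point, linear axis) and its standard error (bar) of each hydrolase for PFA against control in the ileum and for 3 diet comparisons in the liver. MME, SI and TREH have no liver point because they did not pass the filter there, and ANPEP in the ileum, at -0.53 with a standard error of 0.12, lies farthest from 0 relative to its error.

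In the 10 pigs with both tissues all 8 hydrolases were called higher in the ileum, as were 40.6% of the 14982 genes tested. MME, SI and TREH passed the filter on low counts only through the ileum, which set their direction, so for them it is a description. The other 5 (ANPEP, DPP4, ENPEP, XPNPEP2 and MGAM) also passed the filter in the liver. Here the libraries of both tissues were scaled together, so CPM values are not those given above for each tissue. Tissue, library preparation and RNA quality cannot be told apart in these libraries. The study gives a lower minimum RNA quality score for the liver than for the ileum. DPP4 differed least, at 676 ± 116 CPM in the ileum and 265 ± 56.7 CPM in the liver (SD, n = 10), a difference of 1.35 on the log2 scale (standard error 0.13) at an adjusted p of 8.22e-09. ANPEP was at 4984 ± 1056 and 666 ± 136.7 CPM, and the log2 fold change was 2.88 (standard error 0.13) at an adjusted p of 1.49e-14. MGAM followed closely at 3189 ± 737 and 373 ± 103 CPM, and the log2 fold change was 3.09 (standard error 0.18) at an adjusted p of 1.34e-12.

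XPNPEP2 and ENPEP were low in the liver of these pigs, with log2 fold changes of 6.09 (standard error 0.18, adjusted p 1.86e-17) and 7.94 (standard error 0.34, adjusted p 7.26e-15). MME had 113734 counts in the 10 ileum libraries and 36 in the 10 livers, a ratio of 1925 after scaling with an exact 95% counting interval of 1390.4 to 2749. SI had 1180668 counts in the ileum and 3 in the liver, all 3 in P-138, and 9 of 10 livers had none. Its ratio was 239796 with a counting interval of 82053.5 to 1162790. TREH had 371 and 24 counts, a ratio of 9.42 with an interval of 6.23 to 14.9, and was higher in the ileum in 9 of 10 pigs. The intervals cover counting error only.

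**Figure D4:**
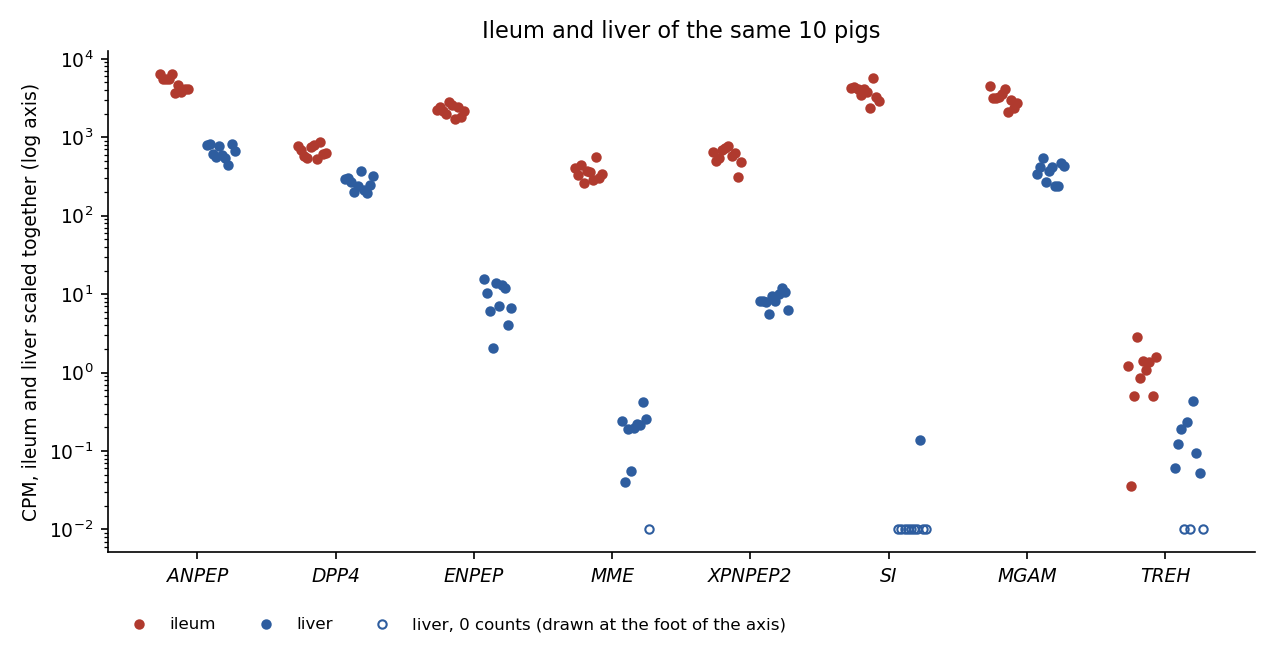
CPM on a log axis of each hydrolase in the ileum and liver of the same 10 pigs, scaled together, with 1 point per library and livers with 0 counts drawn as open circles at the foot of the axis. DPP4, ANPEP and MGAM lie closest together in the 2 tissues among the abundant genes, MME and SI are at or near 0 in the liver, and TREH is low in both.

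Whether the PFA difference of ANPEP was particular to the ileum was tested as the interaction of tissue and diet in these 20 libraries. The PFA effect in the ileum minus that in the liver was -0.32 on the log2 scale (standard error 0.24, adjusted p 0.976), so a difference between the tissues was not shown. None of the 8 hydrolases and none of the 14982 genes passed (0.0% by edgeR, 739 at an unadjusted p under 0.05, and 0 by DESeq2). MME, SI and TREH had at most 9, 3 and 8 counts in any liver of these pigs. Their standard errors were 0.60, 1.59 and 1.26 on the log2 scale, so for them this fit could not decide. The libraries of the control and PFA pigs enter both this and the comparisons above, which are therefore not independent.

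Within the ileum, pigs of the same diet also differed from each other, and several hydrolases varied together. With diet means removed, all 10 pairs among DPP4, ENPEP, MME, SI and MGAM correlated positively over the 10 pigs, with Pearson's r from 0.42 to 0.83. This set of 5 was formed after the values were seen. For DPP4 and SI r was 0.83 (p 0.00215, adjusted p 0.0603) and Spearman's rho 0.78 (p 0.0180, adjusted p 0.118), by an exact permutation test within diets, two-sided, with 28 pairs tested. Without the 2 pigs farthest from the median of DPP4, r was 0.75. For MME and SI r was 0.83 (p 0.00778, adjusted p 0.0898) and rho 0.73 (p 0.0190, adjusted p 0.118) by the same exact test. Without the 2 pigs farthest from the median of MME r fell to 0.38, so this relation rested on them. None of the 28 pairs passed an adjusted p of 0.05.

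ANPEP did not share this pattern in direction. Its r was below 0 with 6 of the other 7 hydrolases, from -0.50 with SI to -0.10 with XPNPEP2, and 0.05 with TREH, and none of these passed (smallest adjusted p 0.498, exact permutation test). In the PFA group P-134 had the highest ANPEP and the lowest DPP4, ENPEP, MME, SI and MGAM. P-107 had the lowest ANPEP and the highest ENPEP, MGAM and XPNPEP2. P-134 also had the least negative slope of expression on the GC content of genes among the 10 ileum libraries, and the slope correlated below 0 with SI (r -0.78, rho -0.67), DPP4 (r -0.70, rho -0.62) and ENPEP (r -0.62, rho -0.62). For ANPEP r was 0.53 (rho 0.33), which turned to -0.18 without the 2 pigs farthest from the median slope. None of these passed over 16 relations (adjusted p of at least 0.319 for r and 0.390 for rho, exact permutation test). The exons of DPP4, ENPEP, MME, SI and MGAM were 37.6% to 49.9% G and C, and those of ANPEP, XPNPEP2 and TREH 56.5% to 59.9%. ANPEP and the genes that varied together thus also differed in GC content. XPNPEP2, close to ANPEP in GC content, did not go with it, at r -0.10. With the genes that varied together its r ran from 0.20 for SI to 0.58 for MGAM. The correlation with the GC slope was weaker for MME (r -0.40), MGAM (r -0.37) and XPNPEP2 (r 0.10). The causes were not tested. A correction for GC content is void, since 79.4% of the genes tested had a value and 80% were needed.

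**Figure D5:**
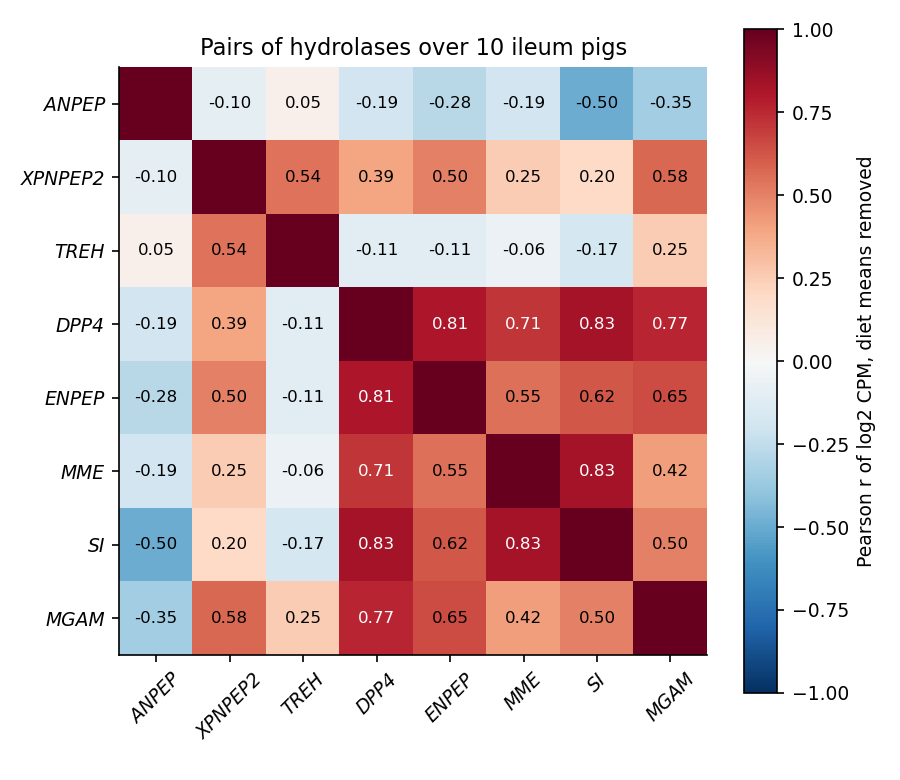
Pearson's r of log2 CPM between each pair of hydrolases over 10 ileum pigs, with diet means removed, on a color scale from -1 to 1. The 10 pairs among DPP4, ENPEP, MME, SI and MGAM have r from 0.42 to 0.83, and ANPEP has r from -0.50 to 0.05 with the others.

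The genes most like ANPEP over the same pigs were USP43 (r 0.95), PFKFB4 (0.95), TAX1BP3 (0.93), NSDHL (0.91) and DNAJC22 (0.88), out of 9551 genes with a mean of at least 10 CPM. They were picked for this likeness, so no test is given. Their own log2 fold changes for PFA ran from -0.15 in PFKFB4 to 0.29 in NSDHL, with adjusted p-values of 0.991 to 0.995.

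In the same pig the ileum and liver levels of the 5 hydrolases measured in both were related loosely, with r from -0.05 for XPNPEP2 to 0.44 for ENPEP (diet means removed, n = 10). None of the 5 relations passed (smallest adjusted p 0.781 for r and 0.711 for rho, exact permutation test within diets). For ANPEP r was 0.31 (p 0.414) and rho 0.49 (p 0.186), and r was 0.56 without the 2 pigs farthest from the median in the ileum. Left out in the same way, the 2 farthest pigs moved r to 0.41 for XPNPEP2, 0.67 for DPP4, 0.68 for ENPEP and 0.01 for MGAM, so the values and the sign for XPNPEP2 rested on few pigs.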

How the data were processed

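RNA was measured in the ileum (10 pigs) and liver (24 pigs) of weaned piglets. The authors aligned read pairs from stranded poly(A) libraries with STAR 2.6.1d to Sscrofa11.1 and counted them per Ensembl gene with HTSeq (versions from the submitters' processing notes), and the deposited values are raw counts per gene without normalization. Which annotation release was used, and whether counting used strand, is not given in the sources used here. Rows that name no gene were left out of library sizes and tests. Per 100 counted read pairs they held 7.54 to 27.9 without a feature, 2.24 to 4.81 that were ambiguous and 3.02 to 36.6 with several alignments. Depth was 18738055 to 42446834 counts per library.

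Counts were tested with edgeR 4.0.16 (R 4.3.3, limma 3.58.1) using TMM scaling, filterByExpr, the two-sided quasi-likelihood test and Benjamini-Hochberg adjustment over all genes kept, with 0.05 as the threshold of the adjusted p. The study used DESeq2, which was run as an alternative (DESeq2 1.42.0). The prior count for log2 CPM was 2. The fits held 10 ileum libraries, 23 liver libraries, and 20 libraries of the 10 pigs with both tissues. Ileum and liver libraries of 1 pig carry the same pig number in their titles and so are paired by animal. Over 13058 genes the deviations of such pairs from the diet means correlated at -0.24 to 0.53, and the fit with the pig as a block changed no call of a hydrolase.

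Symbols came from a gene name table (14857 genes matched) and positions, exons and promoter sequence from RefSeq of Sscrofa11.1 (13735 genes). Relations across pigs were tested over all 14400 permutations within diets. Python 3.11.15, numpy 2.4.6, pandas 2.3.3, scipy 1.17.1, pysam 0.24.0 and matplotlib 3.10.9 were used, and the tests were checked on simulated data. The members and the gene lists were chosen with earlier results of these data known. Named were every member, of the other lists of enterocyte genes those of the 4 genes with the smallest unadjusted p in the ileum that are described, and the 5 genes most like ANPEP. Lists of other cell types are given mostly by their summed level. The alternatives were DESeq2, other size factors, dropping the filter, a stricter filter (10 counts or more in each library), covariates (brush border structure, B cell genes, GC slope), the form of the library title, the OO + PFA liver put back, the pig as a block, control pigs alone, and leaving out each pig. A withheld item of the transcription factor list is not reported here.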

Additional observations from a re-analysis of the deposited data

Results flagged for a closer look

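In 3 of the 36 groups of a hydrolase and a diet, 1 pig lay far from the others by Dixon's test at the 95% level, which chance gives in about 1 in 20 groups. MME was at 827 CPM in the ileum of the PFA pig P-138, where the other 4 PFA pigs had 424 to 533 CPM. This pig also had the highest SI and DPP4 of the 10 ileum libraries. XPNPEP2 was at 12.9 CPM in the liver of OO-130, where the other 5 OO livers had 5.33 to 7.17 CPM. XPNPEP2 was also at 11.4 CPM in the liver of OP-137, where the other 4 OO + PFA livers had 6.34 to 6.92 CPM. Both of these pigs were fed oxidized oil, and both libraries have titles that begin with PL, as have livers of every diet. The library of OO-130 also had the fewest counts of the 23 livers used (19839171). It had the most read pairs with several alignments among them, 14.7 per 100 counted. The causes were not tested.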

How the results depend on the processing

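The ileum comparison of PFA with control called 1 hydrolase, ANPEP, among 4 genes with DESeq2 and 0 with edgeR under every other alternative run, and the cause was not tested. ANPEP stayed below 0 in all 17 alternatives. Other directions in the ileum were not stable. XPNPEP2 was at 0.018 with the structure score as a covariate, DPP4 at -0.066 and MME at -0.10 with the B cell score, and DPP4 at -0.093 and MME at -0.091 with the GC slope, a void correction. Leaving out 1 pig gave ranges of -0.066 to 0.11 for DPP4, -0.17 to 0.12 for MME and -0.18 to 0.86 for TREH in the ileum. In the liver it gave -0.072 to 0.11 for DPP4 under PFA, -0.17 to 0.0027 for ANPEP under OO, and -0.24 to 0.050 for DPP4, -0.70 to 0.0011 for ENPEP and -0.16 to 0.27 for XPNPEP2 for OO + PFA against OO. No hydrolase was called in the liver under any alternative. The number of genes called over the 4 diets was 506 with edgeR, 1776 with DESeq2, 1113 with all 24 livers and 297 to 1450 leaving out 1 liver. For OO it was 375, 1079, 224 and 167 to 1325, for PFA 0 and 43 with DESeq2, and for OO + PFA against OO 0, 31, 1 and 0 to 7. Between ileum and liver 5 hydrolases were called with at least 10 counts in every library, since MME, SI and TREH did not pass that filter, and 7 in the control pigs alone, where TREH did not pass the filter. These 2 fits called 8980 and 9978 genes in either direction, where the main fit called 11699 of 14982 tested. With the pig as a replicate block 11720 genes were called against 11699, all 8 hydrolases among them, and the block changed no other call. Depth limits TREH in the ileum and MME, SI and TREH in the liver. With the GC slope removed from the pairs, a step chosen after seeing the data and void for the same reason, r of MME and SI was 0.90 (adjusted p 0.0331, exact permutation test), past the threshold, and that of the pairs with ANPEP -0.21 to 0.29.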
